A study of Bos taurus with 14 samples.

Results

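Cumulus cells of cattle (Bos taurus) were compared between oocytes that cleaved without reaching the blastocyst stage (Bl-, 5 libraries, replicates 5 to 9) and oocytes that never cleaved (Cl-, 4 libraries, replicates 1 to 4). These are 9 of the 14 libraries of the series. The other 5, from oocytes that became blastocysts (Bl+), entered no fit here and are given only as values. Each library pooled cumulus cells of 10 cumulus-oocyte complexes, and no genotype, age or treatment is given for any group. The transcripts compared were those at 10 TPM (transcripts per 1000000) or more in at least 4 of the 9 libraries, 10843 of 38030 listed. They carried 95.6% to 96.6% of the TPM of each library.

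Cumulus cells are the granulosa-derived somatic cells that enclose the oocyte. They pass metabolites and cyclic nucleotides to it through gap junctions, and they respond to growth factors of the TGF-beta family that the oocyte secretes. After the gonadotropin surge they lay down a hyaluronan-rich matrix and expand. Their transcripts can be sampled without using up the oocyte, and cleavage begins with the first cell division after fertilization. The comparison asks whether transcript levels in these cells differ with whether an oocyte cleaved, among oocytes that gave no blastocyst.

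The deposited identifiers are Ensembl transcripts, and 0 of them matched the reference table used here. The transcripts therefore stand without gene names, roles or sequences, and the label of the cells could not be checked against marker genes. At most 2 identifiers are given in each direction. A level is that of 1 transcript: isoforms and near-identical copies share reads, so the split between them is uncertain.

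The cumulus cells of cleaved and uncleaved oocytes were close in level across these transcripts. No transcript passed an adjusted p of 0.05 in limma, either on TPM as deposited (0%, smallest adjusted p = 0.256) or after trimmed-mean rescaling of the libraries (0%, smallest adjusted p = 0.257). The median difference, Bl- minus Cl-, was 0.00 on the log2(TPM + 1) scale, with -0.28 at the 5th percentile of differences and 0.26 at the 95th. The median size of a difference was 0.08 and the median standard error was 0.10. For 10555 transcripts (97.3%) the unadjusted 95% interval lay inside a 2-fold change, and for 85.4% inside a 1.5-fold change. Before adjustment 994 transcripts (9.17%) had p under 0.05, where chance gives about 1 in 20. Of them 513 were lower in Bl- (4.73%) and 481 higher (4.44%). Transcripts are not independent of each other, and the source of this excess was not tested. Limma without the variance trend and limma with array weights also called none.

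**Figure D1:**
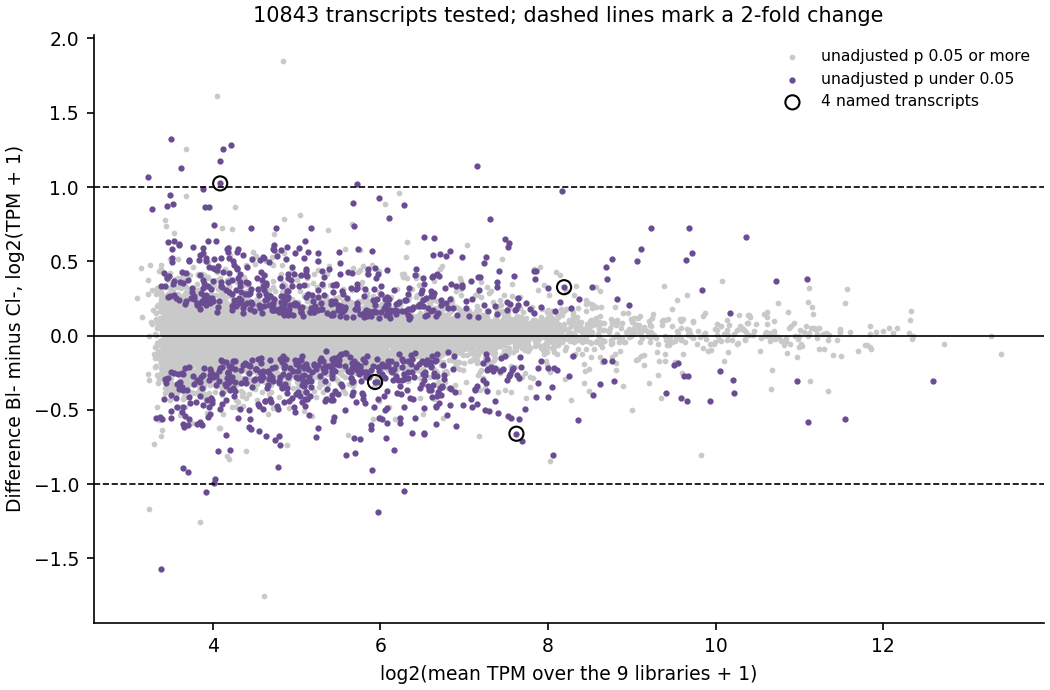
Difference between Bl- and Cl- on the log2(TPM + 1) scale (vertical) against the level over the 9 libraries (horizontal, log2 of mean TPM + 1), 1 point per transcript, with unadjusted p under 0.05 in purple and the 4 named transcripts circled. Both directions are filled alike, and 19 of 10843 points lie past the dashed 2-fold lines, most of them at low levels.

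The 4 transcripts with the smallest p were 2 lower and 2 higher in Bl-. They are given as values, since none passed the adjusted threshold. ENSBTAT00000037243.3 (2273 bases) was at 223, 234, 229 and 304 TPM in Cl- replicates 1 to 4. In Bl- replicates 5 to 9 it was at 173, 162, 148, 144 and 149 TPM. Every Bl- library lay below every Cl- library, and Cl- replicate 4 stood above the other 3. The means were 247 ± 37.9 TPM in Cl- (SD, n = 4) and 155 ± 11.9 in Bl- (SD, n = 5), a ratio of 0.627. Its difference was -0.66 (SE 0.097, adjusted p = 0.256 in limma) and -0.66 after rescaling (adjusted p = 0.257). In Bl+, whose oocytes also cleaved, it ranged from 113 to 248 TPM across both of these groups.

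ENSBTAT00000023706.6 (1948 bases) was at 68.8, 67.1, 68.4 and 66.2 TPM in Cl- and at 56.1, 55.7, 50.5, 55.1 and 54.2 TPM in Bl-. The groups did not overlap, and both were narrow, at 67.6 ± 1.21 (SD, n = 4) and 54.3 ± 2.27 TPM (SD, n = 5). The ratio of means was 0.803, and the difference was -0.31 (SE 0.051, adjusted p = 0.256 in limma). Bl+ libraries spread from 43.4 to 63.2 TPM, all below the Cl- values.

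Among transcripts higher in Bl-, ENSBTAT00000069069.1 (783 bases) was at 8.26, 11.9, 11.4 and 7.78 TPM in Cl- and at 19.4, 22.4, 21.5, 25.5 and 15.9 TPM in Bl-. No library of one group reached the other, and the mean in Bl-, 21.0 ± 3.58 TPM (SD, n = 5), was 2.13 times that in Cl-, 9.83 ± 2.11 (SD, n = 4). These values rest on about 103 to 362 fragments per library, far fewer than the other 3 named transcripts. In Cl- only the values of 11.9 and 11.4 TPM reached the minimum of 10 TPM, so this transcript was tested only with its Bl- libraries. The difference was 1.02 (SE 0.159, adjusted p = 0.256 in limma). In Bl+ it was at 14.5, 15.2, 14.1, 10.0 and 36.7 TPM in replicates 10 to 14, so 3 of those libraries lay between the groups, 1 within the Cl- range and 1 above all Bl- libraries.

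ENSBTAT00000014907.5 (1925 bases) was at 249, 269, 250 and 254 TPM in Cl- and at 332, 319, 309, 343 and 299.9 TPM in Bl-. The groups were separate, with means of 255 ± 9.20 (SD, n = 4) and 320.4 ± 17.3 TPM (SD, n = 5) and a ratio of 1.26. The difference was 0.33 (SE 0.055, adjusted p = 0.256 in limma). Bl+ libraries were at 245, 248, 291, 326 and 341 TPM. None lay within the Cl- range: those at 245 and 248 TPM were below it, and those at 326 and 341 TPM were within the Bl- range. For all 4 transcripts the direction was the same on both scales. Leaving a library out could not change it, because the groups do not overlap, so that is no check of the direction. The adjusted p in limma was 0.0992 to 0.497 over the alternatives tried.

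**Figure D2:**
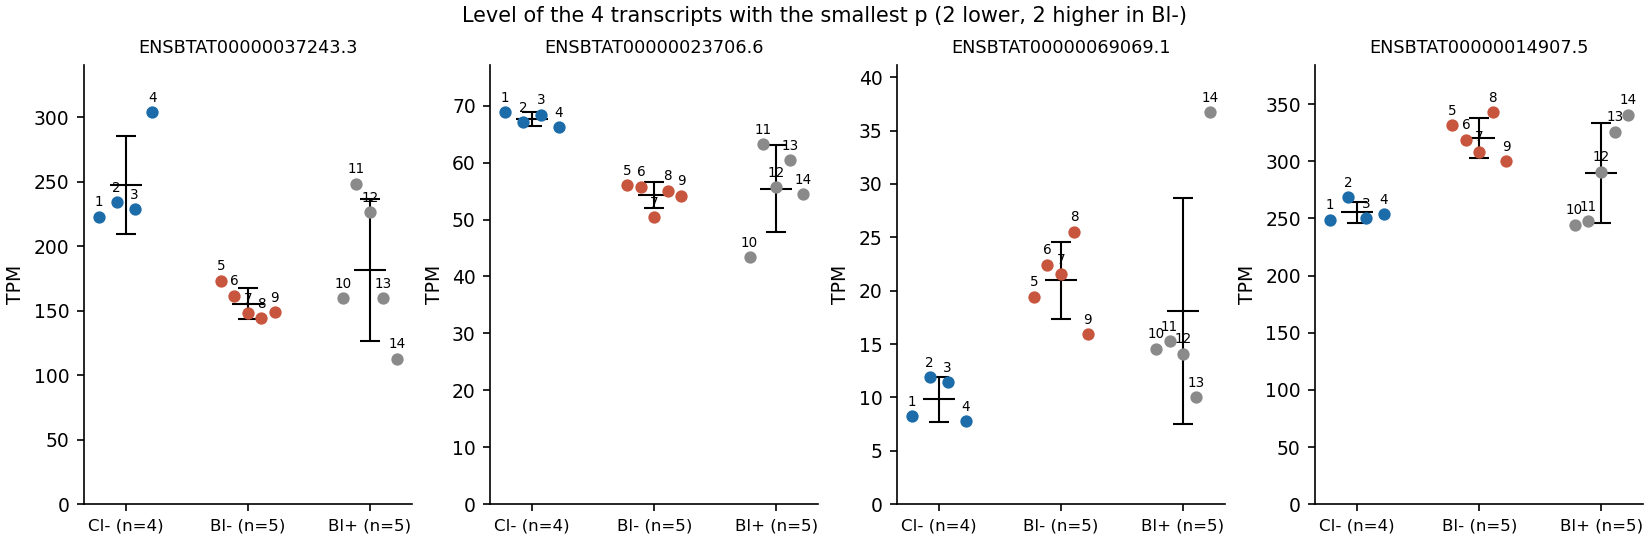
TPM of the 4 named transcripts in each library (points, numbered by replicate), with mean and SD as bars, for Cl- (n = 4), Bl- (n = 5) and Bl+ (n = 5). Cl- and Bl- points do not overlap in any panel, while Bl+ points cover a wider range than Bl- in each.

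A mean difference past 2-fold was found for 19 transcripts (0.175%), 7 lower and 12 higher in Bl-, at a median mean level below 20 TPM. Of these, 13 reached p under 0.05 before adjustment, and their adjusted p in limma ran from 0.256 to 0.717. The standard error of 18 of them was among the largest 10% of all transcripts, and 9 were under 1000 bases long. On TPM as deposited the lowest Bl- library exceeded the highest Cl- library for 5 of the 19, and for none was the reverse true. After trimmed-mean rescaling these 5 stayed separate. A transcript of 1791 bases (difference -1.05) then had every Bl- library below every Cl- library. The minimum of 10 TPM bears on the count of 5: 2 of them (3 of the 12 higher) reached it in no Cl- library. Those were tested only because they were high in Bl-. ENSBTAT00000069069.1 and a transcript of 198 bases reached the minimum in fewer than 4 Cl- libraries, so they too passed only with their Bl- libraries. Over all transcripts tested, 15 reached the minimum only in Bl- libraries and 1 only in Cl- libraries. The 5 are therefore given as a description. ENSBTAT00000069069.1 was among them.

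The others of the 5 are described by length and were chosen after their values were seen. A transcript of 615 bases stood between 3.88 and 5.96 TPM in Cl- and between 7.74 and 24.1 TPM in Bl- (difference 1.32, adjusted p = 0.256 in limma), but spread over 2.92 to 17.2 TPM in Bl+. It passed the minimum through its Bl- libraries alone. A transcript of 1533 bases stood between 21.0 and 47.3 TPM in Cl- and, more narrowly, between 61.6 and 73.5 TPM in Bl- (difference 1.02, adjusted p = 0.256 in limma). Its Bl+ libraries, at 10.6 to 41.0 TPM, all lay below the Bl- values. A transcript of 3279 bases ranged over 4.03 to 8.41 TPM in Cl- against 10.3 to 24.4 in Bl-, and it too passed the minimum through Bl- alone. One of 198 bases ranged over 4.06 to 16.2 TPM in Cl- against 16.9 to 37.7 in Bl-, so its groups nearly met.

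For some of the 7 lower in Bl-, 1 library lifted the Cl- mean. A transcript of 4021 bases was at 78.8, 42.6, 67.9 and 189 TPM in Cl- replicates 1 to 4 and at 30.9 to 47.3 TPM in Bl- (difference -1.19, adjusted p = 0.409 in limma). One of 2446 bases was at 70.1 to 86.1 TPM in Cl- replicates 1 to 3 and at 189.9 in replicate 4. Its Bl- libraries were at 28.8 to 43.0 TPM except replicate 9, at 132 TPM. The groups overlapped for both transcripts, through Cl- replicate 2 for the first and Bl- replicate 9 for the second.

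**Figure D3:**
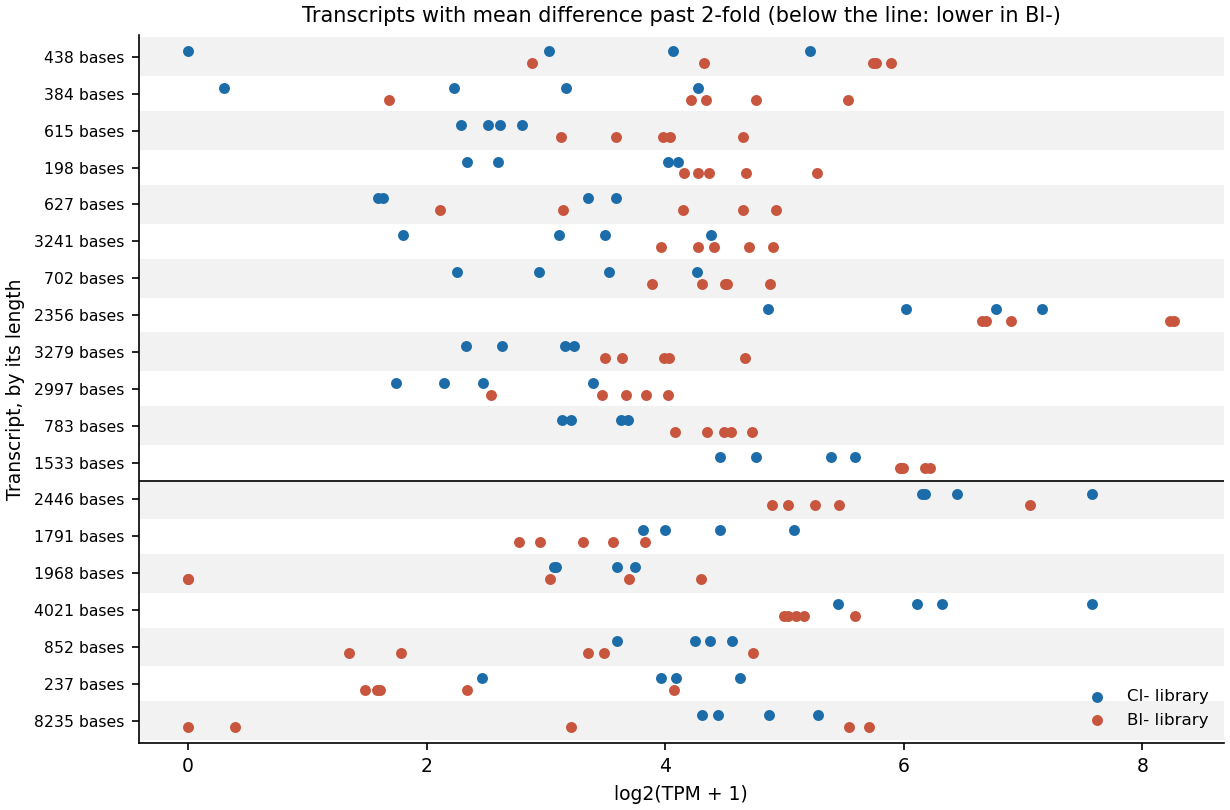
Level in each of the 9 libraries, as log2(TPM + 1), of the 19 transcripts with a mean difference past 2-fold, labelled by length and ordered by difference, with Cl- in blue and Bl- in red. Values are as deposited. In 5 of the 12 above the line all red points lie to the right of all blue points. In the 7 below it the colours overlap.

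The groups did not overlap for 326 transcripts, with Bl- wholly below Cl- for 157 (1.45%) and wholly above for 169 (1.56%). These differences were small, with medians of -0.27 and 0.22. Among them 18 lower and 16 higher transcripts were past a 1.5-fold change. The minimum was reached only in Bl- by 5 of the 169 and only in Cl- by 1 of the 157. After trimmed-mean rescaling 238 lay below (2.19%) and 147 above (1.36%). Of the transcripts separated on one scale, 230 were separated on both, 70.6% of the list as deposited and 59.7% of the rescaled list. The largest difference among the 129 lower on both scales was that of a transcript of 2116 bases, at -0.99 (adjusted p = 0.484 in limma). It stood at 38.6 TPM in Cl- replicate 2, at 14.9 to 16.8 in the other Cl- libraries and at 3.84 to 13.2 in Bl-. One of 7556 bases ranged over 13.6 to 20.4 TPM in Cl- and was at 10.8 TPM in Bl- replicate 6 and 6.55 in replicate 7, with replicate 5 just under the Cl- range (difference -0.92, adjusted p = 0.347 in limma). One of 1937 bases was at 57.5 to 60.9 TPM in Cl- replicates 1 to 3, at 150.5 in replicate 4 and at 31.3 to 53.8 in Bl- (difference -0.90, adjusted p = 0.419 in limma). One of 2530 bases ranged over 12.4 to 22.4 TPM in Cl- and 6.91 to 10.4 in Bl- (difference -0.89, adjusted p = 0.256 in limma). These 4 have the largest differences of the 129.

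The most abundant transcripts differed little. Over the 100 with the highest mean, at 1472 to 10812 TPM, differences ran from -0.58 to 0.38 with a median of 0.01, and the 95% interval of 99 lay inside a 2-fold change. Of the 100, 6 reached p under 0.05 before adjustment (4 lower in Bl-, 2 higher), and 7 did after rescaling. The share over all transcripts tested was 9.17%, and the gap from it was not tested. The most abundant of all (1545 bases) was at 11331 ± 784 TPM in Cl- (SD, n = 4) and 10398 ± 817 in Bl- (SD, n = 5). A transcript of 855 bases was the single one of the 100 whose groups did not overlap, between 6051 and 8087 TPM in Cl- and between 5204 and 5958 in Bl- (difference -0.31, adjusted p = 0.409 in limma). After rescaling its groups overlapped.

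Intervals were widest among low transcripts. The median distance from a difference to the end of its 95% interval was 0.28 below 20 TPM, 0.20 from 20 to 50 TPM, 0.17 both from 50 to 100 and from 100 to 1000 TPM, and 0.19 above 1000 TPM, on the log2 scale. The share at an unadjusted p under 0.05 was 6.82% of the 3564 transcripts below 20 TPM, 8.83% of 3897 from 20 to 50 TPM and 12.5% of 1808 from 50 to 100 TPM. It was 11.9% of 1429 from 100 to 1000 TPM and 7.59% of 145 above 1000 TPM, against 9.17% of all tested. The class above 1000 TPM rests on only 7 lower and 4 higher transcripts, and differences between the classes were not tested. Of the 19 transcripts past 2-fold, 13 were below 20 TPM.

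Rescaling moved the balance of directions, though the factors were near 1, from 0.962 to 1.05. After it 1083 transcripts (9.99%) reached p under 0.05 before adjustment: 617 stood lower in Bl- (5.69%) and 466 stood higher (4.30%). The lower side thus made up 57.0%, against 51.6% as deposited. The lists shared 921 transcripts, 92.7% of the deposited list and 85.0% of the rescaled one. The balance also moved with single libraries: 64.0% were lower without Bl- replicate 5 and 41.5% without Cl- replicate 1.

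**Figure D4:**
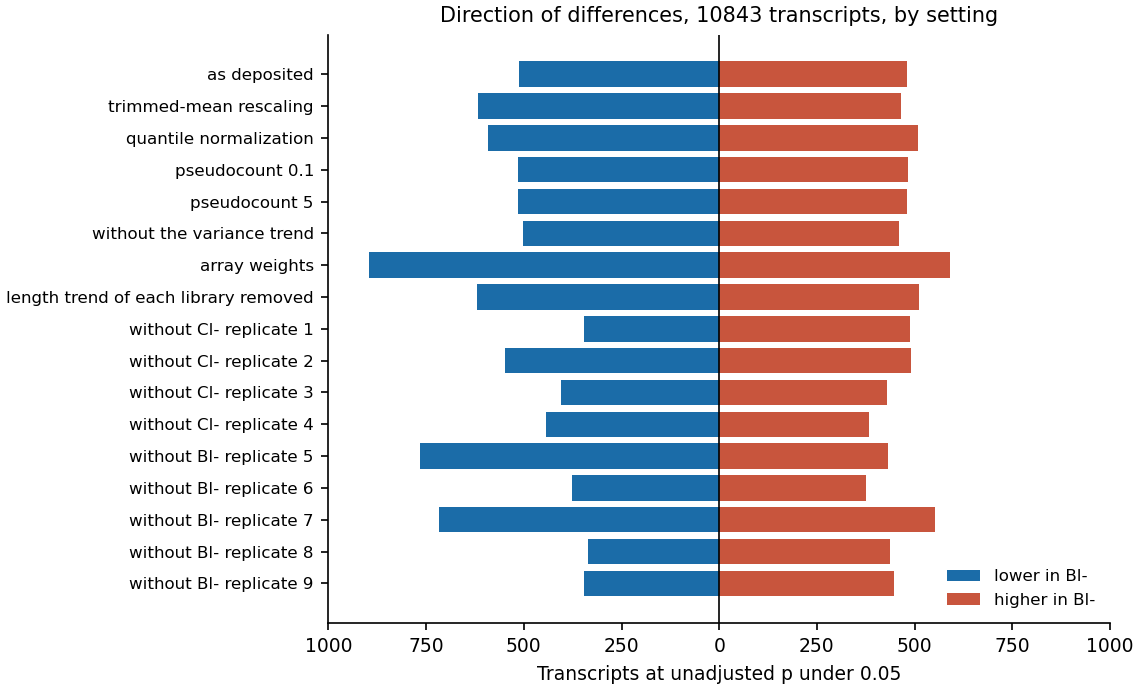
Transcripts at an unadjusted p under 0.05 among 10843, lower (blue, left) and higher (red, right) in Bl-, for TPM as deposited and each alternative with the same transcripts. The lower side runs from 335 without Bl- replicate 8 to 897 with array weights, and the higher side from 376 without Bl- replicate 6 to 590 with array weights.

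Cl- replicate 4 stood apart from the other libraries. Its correlation with them across transcripts, which are not independent replicates, was 0.959 to 0.973, against 0.970 to 0.985 among the other 8. It was the highest Cl- library for 51.7% of the 513 transcripts lower in Bl-, against 26.4% of all tested. It was also the lowest Cl- library for 61.5% of the 481 higher ones, against 40.8% of all. Bl- replicate 7 lay at the near side of its group, the highest Bl- library for 44.6% of the lower list and the lowest for 33.3% of the higher list, against 20.8% and 18.2% of all. Cl- replicate 2 did likewise in its group, the lowest Cl- library for 48.7% of the lower list and the highest for 33.3% of the higher list, against 24.8% and 18.5% of all. Without Cl- replicate 4 there were 443 lower and 383 higher transcripts, of which 317 and 264 were on the first lists, and the smallest adjusted p was 0.109 in limma. The median SD within Cl- was 0.13 with it and 0.10 without it, and 0.14 within Bl-.

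The Bl- libraries were also split by transcript length. Relative to the mean of the 9 libraries, the longest 20% of transcripts (3574 bases or more) stood above the shortest 20% (1242 bases or less) by 0.13 in Bl- replicate 5 and 0.05 in replicate 7. They stood below by 0.08, 0.08 and 0.13 in replicates 6, 8 and 9. In Cl- this gap was 0.07, -0.02, 0.04 and 0.01 in replicates 1 to 4. The same 3 Bl- libraries had the highest scores on the first principal component, which held 27.1% of the variance. The balance of directions between the groups also differed by length. Among the shortest 20% (2170 transcripts), 74 were lower in Bl- and 104 higher at an unadjusted p under 0.05. The median difference of this class was 0.02. Among the longest 20% (2169 transcripts), 119 were lower and 86 higher, with a median of -0.02. After trimmed-mean rescaling the shortest class was nearly balanced, with 82 lower and 88 higher. The longest class then had 162 lower and 98 higher. Whether the balance differed between the classes was not tested. The part of the length gap in these differences was not tested beyond removing it. With the length trend of each library removed, 0 transcripts passed (smallest adjusted p = 0.218 in limma). Before adjustment 1132 reached p under 0.05 (620 on the lower side, 512 on the higher).

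**Figure D5:**
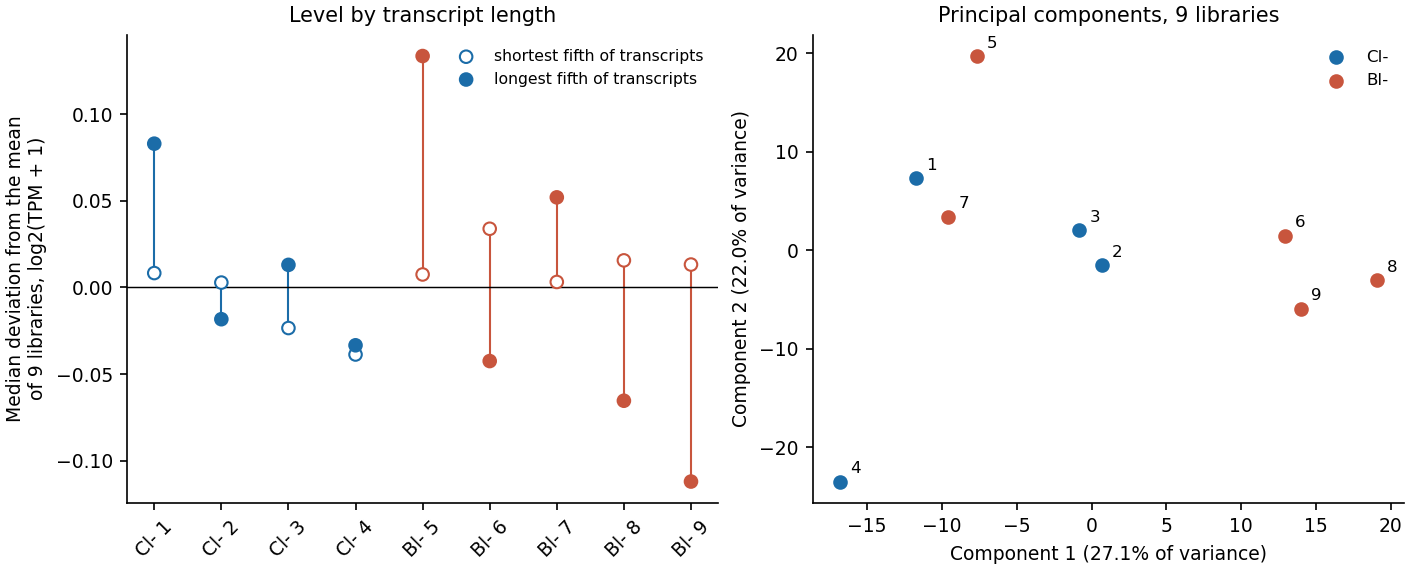
Left, median deviation of the shortest (open) and longest (filled) 20% of transcripts from the mean of the 9 libraries, on the log2(TPM + 1) scale. Right, scores of the libraries on the first 2 principal components: Bl- replicates 6, 8 and 9 lie at the right, and Cl- replicate 4 at the lower left.

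No difference between the groups in whole-library measures passed a test. Libraries held about 28.6 to 39.8 M fragments (M, 1000000). A level of 1 TPM or more was reached by 18933 to 19913 transcripts per library. Over 5 measures (median level, transcripts at 1 TPM, share of the 100 most abundant, trimmed-mean factor and fragments) exact two-sided permutation tests gave p = 0.746 to 0.944, each with an adjusted p of 0.944. The mean distance between libraries, a root mean square difference of log2(TPM + 1), was 0.324 within groups and 0.334 between them (exact one-sided permutation test, p = 0.159). After rescaling it was 0.317 and 0.329 (exact one-sided permutation test, p = 0.0952).

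The threshold of 10 TPM placed 254 transcripts just inside, with exactly 4 libraries at the minimum, and 282 just outside with 3. The 4th highest value was 10.4 TPM at the median inside and 9.56 outside. Of the transcripts tested, 9288 reached 10 TPM in all 9 libraries, 15 in no Cl- library and 1 in no Bl- library. Transcripts below the threshold were not part of the comparison. With a minimum of 1 TPM 1 of 19848 passed in limma (adjusted p = 0.0451), and with no minimum 3 of 32445 passed, all lower in Bl- and at 2.46 TPM or less in every library.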

How the data were processed

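Per the labels' protocols, RNA of pooled cumulus cells went into stranded poly-A libraries, amplified over 15 PCR cycles and read as pairs of 76 bases. The deposited values are TPM per Ensembl transcript. FastQC, fastp and kallisto are named in the submitters' processing notes; no version, build or transcript release is stated there. The labels do not say whether pools came from separate animals or days, so p-values measure the spread between these libraries, which may be technical.

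The test was limma 3.58.1 (R 4.3.3) on log2(TPM + 1) (variance trend, Bl- and Cl- only, two-sided, Benjamini-Hochberg over 10843 transcripts). This scale understates changes of low transcripts. Trimmed-mean factors left out 30% of the log2 ratios to a reference library, and 5% of the levels, at each end. The procedure was run on simulated data with independent noise for each transcript and planted changes of 2-fold or more. Smaller changes and correlation between transcripts were not simulated. Fragments were read from the step of TPM times effective length, with 52.6% to 57.0% of low values within 0.03 of a whole multiple. PCR copies may be counted in them.

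The named transcripts are the 2 with the smallest p in each direction. The comparison and this rule were chosen with earlier results of these data known. Planned gene lists, markers and gene names could not be applied without a match of identifiers.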

Additional observations from a re-analysis of the deposited data

Results flagged for a closer look

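Libraries were compared with the rest of their group by a Dixon test for 26 groups of values, and 5 stood apart, where chance gives about 1 in 20. The groups of values share libraries and are not independent of each other, so this rate is only a rough guide. Cl- replicate 1 had a median level of 4.98 on the log2(TPM + 1) scale, against 4.91 to 4.92 in the other Cl- libraries. Cl- replicate 4 lay at a mean distance of 0.353 from the other Cl- libraries, against 0.293 to 0.300 for those. Distances within Bl- reached as far, from 0.311 in replicate 6 to 0.353 in replicate 5. Cl- replicate 4 also held 304 TPM of ENSBTAT00000037243.3, against 223 to 234 TPM in the other 3 Cl- libraries. Without that library the difference of that transcript was -0.56. Bl- replicate 8 held 39.5 M fragments (M, 1000000), against 29.1 to 32.1 M in the other Bl- libraries. Bl+ replicate 14, which entered no fit, held 36.7 TPM of ENSBTAT00000069069.1, against 10.0 to 15.2 TPM in the other Bl+ libraries.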

How the results depend on the processing

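With each library left out, transcripts passing in limma stayed at 0 to 0 on both scales (smallest adjusted p 0.109 to 0.497 as deposited, 0.0631 to 0.452 rescaled). Pseudocounts of 0.1 and 5, quantile normalization, a minimum of 10 TPM in all libraries, no variance trend, array weights and removal of the length trend, which was chosen after seeing the data, also gave 0. A minimum of 1 TPM gave 1 and no minimum gave 3; both test more transcripts. At an unadjusted p under 0.05, lower transcripts numbered 335 to 767 and higher ones 376 to 553 with a library left out. Array weights gave 897 lower, no minimum gave 1020 lower and 1003 higher, and a minimum of 1 TPM gave 722 higher. Groups without overlap numbered 181 to 396 (Bl- below) and 217 to 368 (Bl- above) with a library left out, where fewer libraries have to be separate. With no minimum they numbered 308 and 293, 245 lay below with the length trend removed, and 238 after trimmed-mean rescaling. The share of intervals inside a 2-fold change ran from 92.0% to 98.7%. Differences of library means were near 0 and changed sign with a library left out: -0.021 to 0.019 for the median level, -159.8 to 85.3 transcripts at 1 TPM, -0.60 to 0.15 percentage points for the 100 most abundant, -0.0092 to 0.0142 for the trimmed-mean factor and -2.30 to 1.56 M fragments. With a library left out, the difference ran from -0.71 to -0.56 for ENSBTAT00000037243.3, -0.32 to -0.29 for ENSBTAT00000023706.6, 0.93 to 1.11 for ENSBTAT00000069069.1 and 0.30 to 0.35 for ENSBTAT00000014907.5. Other moves had no tested cause. No paired analysis was made, because the labels give no animal or day by which pools of the 2 groups could be matched.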

Other observations

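A few transcripts that passed the threshold were at or near 0 in some pools. Of the 10843 tested, 13 (0.12%) were under 0.5 TPM in at least 1 of the 9 libraries, and 10 of these reached 20 TPM in another. In 7 of the 13 the low libraries were all Bl-, in 2 all Cl- and in 4 from both groups, and in none was a whole group low. None had an unadjusted p under 0.05. Of the 19 transcripts past 2-fold, 4 were among them.

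A transcript of 8235 bases and one of 1968 bases, chosen after their values were seen, were low in the same libraries. The first was at 18.8 to 37.9 TPM in Cl- and at 51.1, 0.000544, 45.6, 8.27 and 0.317 TPM in Bl- replicates 5 to 9. The second was at 7.41 to 12.4 TPM in Cl- and at 18.7 TPM in Bl- replicate 5, 0 in replicate 6, 7.21 in replicate 8 and 0.00151 in replicate 9. In Bl+ replicate 12 both were listed at 0. Their mean differences of -1.75 and -1.17 thus came from Bl- replicates 6 and 9, while Bl- replicate 5 held the highest level of both among these 9 libraries (adjusted p = 0.676 and 0.717 in limma).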
